A study of Mus musculus with 39 samples.

Results

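The genes described here are 10 genes that mark hepatic stellate cells or build the collagen matrix around them: the fibrillar collagen chains Col1a1, Col1a2 and Col3a1, the basement membrane collagen chain Col4a1, the matrix proteoglycan Dcn, the contractile actin Acta2, the protease inhibitor Timp1, the growth factor receptor Pdgfrb, and Lrat and Reln, which mark the quiescent stellate cell. Their members were the 21 probe sets whose only gene symbol in the array's annotation is 1 of these 10, out of 45101 probe sets and 18193 genes with such a probe set. A gene with several probe sets was read from the one with the highest mean, and it was tested when that probe set lay above the array's median on at least 4 arrays. That left 12580 genes of the series, 9 of the 10 members and 16 of their 21 probe sets, and the gene that did not pass was Timp1.

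Expression was measured on 39 Affymetrix mouse arrays with RNA of whole liver from male B6C3F1/Crl mice, a cross of C57BL/6 with C3H/He. They were aged 29 to 32 days on arrival and given 5 days to acclimatise. Phenobarbital, an antiepileptic drug that switches on drug-metabolising genes in liver and promotes liver tumours in rodents, was given in the drinking water at 0.05% (w/v) for 1, 7, 28 or 91 days, with 5 arrays per duration. Control mice were sampled at the same durations, with 4 arrays at day 1 and 5 at each later day. Replicate numbers used here only name the arrays of a group in the order they are listed, and pair none across groups. No transgene or other allele is named for any of the 8 groups, and the labels do not say whether each array is a separate animal, so the spread behind each p-value is that between arrays and may be technical. The mice aged while the study ran, so the days on study and the age of the animal cannot be told apart in either arm.

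Stellate cells lie between hepatocytes and the sinusoidal endothelium and store most of the body's retinoid as esters in lipid droplets. In injured liver they lose these droplets, take on smooth muscle actin and lay down fibrillar collagen, and in this activated state they are the main source of scar matrix. The genes are not exclusive to them: portal fibroblasts make fibrillar collagen and Dcn, endothelial cells make Col4a1, and vascular smooth muscle makes Acta2.

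Promoters are shown for Col1a2 and Col3a1, whose signals followed each other most closely, and for Lrat and Reln, the members that were lower after phenobarbital at most durations. They are the 250 bases before the RefSeq start on build GRCm38.p6: chr6:4505368-4505617 (+ strand), chr1:45311288-45311537 (+), chr3:82903975-82904224 (− strand) and chr5:22344706-22344955 (−). Each is written 5′ to 3′ on the gene's strand, with matches to the motifs searched in capitals.
Col1a2: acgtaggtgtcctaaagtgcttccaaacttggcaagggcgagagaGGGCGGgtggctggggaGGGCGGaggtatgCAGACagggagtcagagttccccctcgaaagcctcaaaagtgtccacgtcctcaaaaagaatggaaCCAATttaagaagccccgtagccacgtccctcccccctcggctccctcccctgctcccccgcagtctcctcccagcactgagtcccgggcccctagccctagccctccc
Col3a1: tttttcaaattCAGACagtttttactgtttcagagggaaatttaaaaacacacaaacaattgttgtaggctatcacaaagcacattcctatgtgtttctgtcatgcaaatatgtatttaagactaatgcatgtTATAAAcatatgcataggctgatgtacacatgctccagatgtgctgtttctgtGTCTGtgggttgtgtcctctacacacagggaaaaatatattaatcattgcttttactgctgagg
Lrat: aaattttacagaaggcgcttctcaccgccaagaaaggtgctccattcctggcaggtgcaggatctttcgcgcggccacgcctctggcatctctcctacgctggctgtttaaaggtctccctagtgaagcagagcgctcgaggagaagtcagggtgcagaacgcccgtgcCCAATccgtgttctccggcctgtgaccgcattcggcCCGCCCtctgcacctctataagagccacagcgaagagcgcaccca
Reln: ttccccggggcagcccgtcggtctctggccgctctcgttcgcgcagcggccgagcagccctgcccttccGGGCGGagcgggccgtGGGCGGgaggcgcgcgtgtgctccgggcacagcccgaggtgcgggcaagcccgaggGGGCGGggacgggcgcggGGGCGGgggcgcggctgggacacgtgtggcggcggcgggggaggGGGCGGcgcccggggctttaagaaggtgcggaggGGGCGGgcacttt

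The motifs were CCAAT (the CCAAT box), then TATAAA (the TATA box), then CAGAC (the SMAD element), then GGGCGG (the GC box) and the CArG box, searched on both strands, and no match overlapped another in these 4 windows. In Col1a2 there were 2 matches to GGGCGG, 1 to CAGAC and 1 to CCAAT, the last at 109 to 105 bases before the start. The Col3a1 window held 1 TATAAA match, at 117 to 112 bases before the start, and 2 CAGAC matches, of which 1 lay on the opposite strand. Lrat had 1 CCAAT and 1 GGGCGG match, and Reln had 6 GGGCGG matches and none of the other motifs. Over 32851 promoters of the same length, CCAAT was present in 33.8%, TATAAA in 12.4%, CAGAC in 42.2%, GGGCGG in 32.7% and the CArG box in 1.47%. Of the 10 genes 7 had a promoter in the RefSeq table, and Col1a1, Dcn and Pdgfrb did not.

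Hepatocyte markers had an array mean between 14.27 and 14.41 on all 39 arrays, on the log2 signal scale used throughout. Replicates correlated at 0.989 to 0.996, and no arrays were identical. Arrays that stood apart were replicate 3 of the phenobarbital group at day 1, whose exocrine pancreas markers averaged 11.15 against at most 7.49 on every other array, and replicate 3 at day 7, whose Kupffer cell markers averaged 10.76 against at most 9.96. Day 1 control replicate 4 had a proliferation marker mean of 6.99, against a median of 8.53 in its group, and day 28 control replicate 2 carries a title outside the numbering of the others. Array medians were 5.69 to 5.77 after phenobarbital and 5.73 to 5.80 in controls. They did not overlap at day 1, with 5.70 to 5.75 after phenobarbital and 5.76 to 5.78 in controls. At day 28 they were at most 5.73272 after phenobarbital and at least 5.73345 in controls. Array means were at most 6.2455 after phenobarbital and at least 6.24674 in controls over all days. The share of higher genes among those called depended on the scaling. That share was 48.5% at day 1, 33.2% at day 7, 38.1% at day 28, 22.3% at day 91 and 32.9% for the mean effect. After quantile normalization it was 62.4%, 45.3%, 57.9%, 38.9% and 53.9%, and after centring each array on its median 63.0%, 51.4%, 53.4%, 42.4% and 54.0%, in the same order.

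The first comparison asked how these genes changed in control liver between day 1 and day 91. Collagen signal fell 2.64-fold to 5.70-fold, the receptor Pdgfrb fell 2.04-fold on its main probe set, and the quiescence markers Lrat and Reln fell 1.59-fold and 1.29-fold. Of the 9 members tested 8 were called lower and 0 higher by limma at an adjusted p under 0.05, where 16.6% of all tested genes were called lower and 19.7% higher. For 6 of them, the 4 collagens, Dcn and Pdgfrb, every day 91 control lay below every day 1 control, a separation found for 11.1% of tested genes. The median change of the members was -1.03 on the log2 scale, against 0.04 over all tested genes. In bulk liver RNA, fewer cells of a type and less RNA per cell cannot be told apart.

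Col3a1, which assembles with type I collagen in the fibrils of soft tissue (chromosome 1, 45311538 to 45349706), had log2 signals of 9.68, 9.57, 9.78, 9.37 and 9.40 in day 91 controls, against 12.40, 12.09, 11.98 and 11.82 in day 1 controls. All 5 later arrays lay more than 2 log2 units below the lowest early one. The change was -2.51 (SE 0.13, adjusted p = 1.18e-16), a 5.70-fold lower signal, and it was the 30th lowest among all tested genes. A second probe set of Col3a1 gave -3.12 (SE 0.22, adjusted p = 4.11e-13). Its day 91 control signals were low, at 4.98 to 5.98 where the array medians were 5.73 to 5.78.

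Col1a2, the alpha-2 chain of type I collagen (chromosome 6, 4505618 to 4541543), had 8.53, 8.46, 8.60, 8.38 and 8.49 in day 91 controls, against 10.92, 10.77, 10.57 and 10.43 in day 1 controls. The later arrays lay close together and far below the early ones. Its change was -2.18 (SE 0.14, adjusted p = 1.37e-14), 4.53-fold lower. Its second tested probe set gave -2.89 (SE 0.17), with low signals of 5.29 to 5.89 in day 91 controls. Col1a1, the partner chain (chromosome 11, 94936224 to 94953042), had 6.01, 5.85, 5.62, 5.90 and 5.60 in day 91 controls, against 7.50, 7.47, 7.01 and 6.80 in day 1 controls. These groups did not overlap either, and the change was -1.40 (SE 0.16, adjusted p = 2.53e-08), 2.64-fold lower. The signals of Col1a1 at day 91 were close to the array medians of 5.69 to 5.80, and its second probe set gave a smaller change of -0.71 (SE 0.15, adjusted p = 0.00025).

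Col4a1, a chain of the basement membrane network (chromosome 8, 11198423 to 11312889), had 8.44, 8.39, 8.35, 8.49 and 8.52 in day 91 controls, against 10.34, 10.25, 10.32 and 9.77 in day 1 controls. It was 3.32-fold lower, with a change of -1.73 (SE 0.10, adjusted p = 1.47e-15), and its second probe set gave -1.001 (SE 0.11). Its lowest early value came from day 1 control replicate 4, 1 of the arrays that stood apart. Without those 4 arrays the 4 collagens had changes of -2.60 for Col3a1, -2.26 for Col1a2, -1.87 for Col4a1 and -1.53 for Col1a1, each somewhat further down than with them.

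The time course of the collagens in controls was not even. Col3a1 averaged 12.07 ± 0.25, 11.79 ± 0.21, 10.17 ± 0.17 and 9.56 ± 0.18 at days 1, 7, 28 and 91 (SD, n = 4 at day 1 and 5 later). Between day 7 and day 28 it fell by 1.62 (SE 0.12, adjusted p = 2.6e-11), in the same interval Col1a1 fell by 1.15, Col1a2 by 1.14 and Col4a1 by 1.16, and in each of the 4 genes the later arrays lay below all the earlier ones. With Pdgfrb this held for 5 of 9 members, where it held for 13.5% of tested genes. With Pdgfrb (-0.46) and Reln (-0.25), 6 of 9 members were called lower in that interval, where 26.5% of tested genes were. From day 1 to day 7 only 3 of 9 were called lower, Col1a2 (-0.45), Pdgfrb (-0.35) and Dcn (-0.31), where 16.4% of tested genes were. From day 28 to day 91 Col3a1 (-0.61), Col1a2 (-0.58) and Col4a1 (-0.50) were called lower, 3 of 9 members where 5.13% of tested genes were. Col1a1 showed a change of 0.01 (95% interval -0.30 to 0.31) in that last interval.

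**Figure D1:**
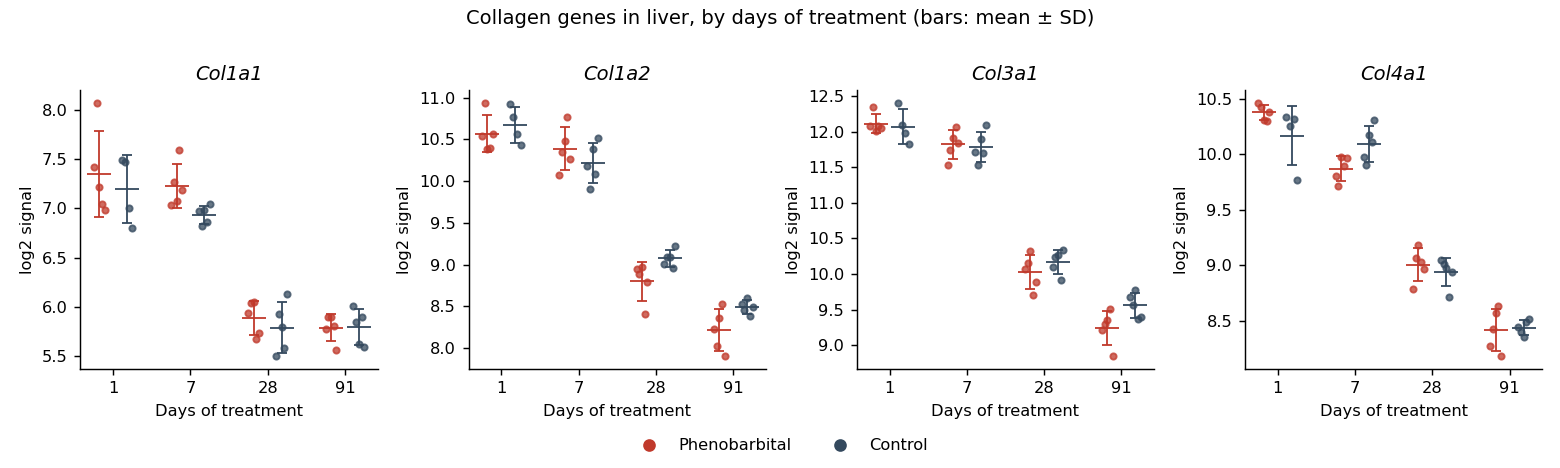
Log2 signal of Col1a1, Col1a2, Col3a1 and Col4a1 (vertical axes) against days of treatment (horizontal axis), with 1 point per array and the mean ± SD of each group, phenobarbital left of control at each day. Col3a1 averaged 9.24 after phenobarbital and 9.56 in controls at day 91, against 12.11 and 12.07 at day 1, and in all 4 genes the points of both arms drop together between day 7 and day 28.

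Pdgfrb, the receptor through which platelet-derived growth factor drives stellate cell growth (chromosome 18, 61045127 to 61085067), had 7.75, 7.80, 7.79, 7.72 and 7.39 in day 91 controls, against 8.61, 8.73, 8.92 and 8.60 in day 1 controls. The groups were apart, with a change of -1.03 (SE 0.14, adjusted p = 3.87e-07), 2.04-fold lower. Its probe sets disagreed in size: the second gave -0.19 (SE 0.09, adjusted p = 0.118), which was not called although its groups did not overlap.

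Dcn encodes decorin, a small proteoglycan that binds collagen fibrils (chromosome 10, 97479500 to 97518163). It had 11.80, 11.80, 11.45, 11.71 and 11.73 in day 91 controls, against 12.34, 12.19, 12.17 and 12.05 in day 1 controls. The groups were apart by a small margin, and the change was -0.49 (SE 0.11, adjusted p = 0.000738), 1.40-fold lower. The second probe set of Dcn gave -0.35 (SE 0.12, adjusted p = 0.0274), at low signals that lay above the array's median on 21 of 39 arrays.

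Acta2, the smooth muscle actin that activated stellate cells take on (chromosome 19, 34240336 to 34255585), had 8.23, 7.47, 8.35, 8.32 and 7.78 in day 91 controls, against 8.18, 8.34, 8.62 and 8.71 in day 1 controls. The groups overlapped, and the change of -0.43 (SE 0.18, adjusted p = 0.0572) was not called. It was called in 5 of 20 alternative settings, and its probe set matches several transcripts by its name, so signal of another gene cannot be told apart. Timp1, the tissue inhibitor of matrix metalloproteinases that rises in liver fibrosis (chromosome X, 20870166 to 20874737), ranged from 4.48 to 5.24 over the 39 arrays and lay above the array's median on 0 of them. With no filter on low signals it gave -0.17 (SE 0.10, adjusted p = 0.208) in controls, not called.

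Lrat makes the retinyl esters that stellate cells store (chromosome 3, 82892582 to 82903974). Its main probe set had 8.28, 8.90, 8.36, 9.02 and 8.22 in day 91 controls, against 8.86, 10.06, 9.29 and 8.68 in day 1 controls. The groups overlapped, and the change was -0.66 (SE 0.24, adjusted p = 0.032). This call was lost in 6 of 22 alternative settings, among them leaving out day 1 control replicate 2, the highest early array, which gave -0.39 (adjusted p = 0.237). The second probe set of Lrat lay below the array medians in all 5 day 91 controls (4.58 to 5.21), against 5.97 to 7.94 in day 1 controls. It lay above the array's median on 7 arrays, all of them controls and 4 of them the day 1 controls, so it was tested only through arrays where it is high and its change is not given as support.

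Reln encodes reelin, a large secreted glycoprotein that in liver is made by stellate cells (chromosome 5, 21884454 to 22344705). Its signals were 10.36, 10.45, 10.33, 10.34 and 10.34 in day 91 controls, against 10.80, 10.86, 10.90 and 10.39 in day 1 controls. The overlap came from 1 array of each group: day 1 control replicate 4, at 10.39, lay below day 91 control replicate 2, at 10.45, and above the other day 91 controls. The change was -0.37 (SE 0.09, adjusted p = 0.00191), and -0.49 without the 4 arrays that stood apart.

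In the livers given phenobarbital the members had a like course over time. All 9 tested members were called lower at day 91 than at day 1, where 28% of tested genes were called lower, and 7 of them did not overlap, where 21.2% of tested genes did not. Col3a1 had 9.21, 9.30, 9.36, 9.50 and 8.85 after 91 days of phenobarbital, against 12.08, 12.35, 12.01, 12.08 and 12.04 after 1 day, a change of -2.87 (SE 0.12, adjusted p = 2.38e-19). The other changes were -2.35 for Col1a2, -1.96 for Col4a1, -1.56 for Col1a1, -1.10 for Pdgfrb, -0.84 for Lrat, -0.56 for Acta2, -0.54 for Reln and -0.37 for Dcn. Acta2 passed the test here (adjusted p = 0.00627) and not in controls, but the difference between the arms was itself only -0.13 (SE 0.25, adjusted p = 0.723).

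The second comparison set phenobarbital against control at each duration. On the main probe sets the collagens and Acta2 were called at no duration. Lrat and Reln were called lower after phenobarbital at days 7, 28 and 91, and Dcn and Pdgfrb at day 28. At day 91 the uncalled differences of Col3a1 (-0.32) and Col1a2 (-0.28) were close in size to the called one of Reln (-0.30). The second probe set of Col4a1 was called higher at day 1 (0.30) and lower at day 7 (-0.51), where its arms did not overlap (8.11 to 8.49 after phenobarbital and 8.75 to 8.87 in controls). With all probe sets averaged Col4a1 itself was called at both days, at 0.26 and -0.37. No member was called higher at any duration, where 15.8%, 5.64%, 11.2% and 4.62% of tested genes were at days 1, 7, 28 and 91. The lower calls among 9 members numbered 2 at day 7, 4 at day 28 and 2 at day 91, where 11.4%, 18.1% and 16.1% of all tested genes were called lower, in that order. A lower call at 3 or more durations, as Lrat and Reln had, was made for 3.59% of tested genes.

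At day 1 limma called 0 of 9 members, while 32.5% of tested genes were called, and 2 members had an unadjusted p under 0.05. These were Dcn at -0.27 (SE 0.11, adjusted p = 0.0594) and Col4a1 at 0.21 (SE 0.10, adjusted p = 0.105). The median change of the members was -0.10, against 0.01 over all tested genes. Livers at this time differed in proliferation: all 9 tested proliferation markers were called higher after phenobarbital, with a median of 1.48, and their part in the values of the members was not tested.

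Reln at day 7 had 10.15, 10.02, 10.01, 10.09 and 10.05 after phenobarbital, against 10.40, 10.84, 10.81, 10.44 and 10.83 in controls. Every treated array lay below every control, a separation that 7.61% of tested genes had in this direction. The difference was -0.60 (SE 0.09, adjusted p = 6.86e-06), 1.52-fold lower. It differed from that at day 1 by -0.46 (SE 0.13, adjusted p = 0.00945 for the difference of the effects). Without day 1 control replicate 4, which stood apart, the day 1 difference of Reln was -0.26 and called, in place of -0.14 and uncalled. The change from day 1 was not assessed without that array. Lrat at day 7 had 7.73, 8.37, 8.05, 7.50 and 7.99 after phenobarbital, against 8.29, 8.74, 8.47, 9.15 and 8.90 in controls. Only replicate 2 of the treated arrays, at 8.37, reached into the control range. The difference was -0.78 (SE 0.23, adjusted p = 0.0173), 1.72-fold lower.

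The spike-in controls of the hybridisation also separated the arms at day 7, with a median of 10.82 after phenobarbital and 10.06 in controls and no overlap, and at day 1, with 10.55 to 10.85 after phenobarbital and 10.91 to 10.97 in controls. At day 1 limma also called 0 of 9 members with their mean as a covariate. At day 7 with that covariate Lrat had a difference of -0.72 and was not called (adjusted p = 0.192), while Reln was called in every alternative at day 7. Lrat at day 7 also lost its call without replicate 4 of either arm, at -0.67 in both cases. Without the 4 arrays that stood apart, Lrat had -0.81, Reln had -0.59 and Col4a1 was called as well, at -0.25 (adjusted p = 0.0474).

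At day 28 Lrat had 8.03, 7.22, 7.46, 6.93 and 7.69 after phenobarbital, against 8.65, 8.16, 8.14, 8.54 and 8.13 in controls. All treated arrays lay below all controls, and the difference was -0.86 (SE 0.23, adjusted p = 0.00553), 1.81-fold lower. Dcn had 11.52, 11.42, 11.52, 11.03 and 11.59 after phenobarbital, against 11.93, 11.92, 11.90, 11.96 and 12.07 in controls. These groups were also apart, with a difference of -0.54 (SE 0.10, adjusted p = 0.000235). Separation in this direction at day 28 was found for 2 of the 9 members and for 9.59% of tested genes.

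Pdgfrb at day 28 had 6.68, 7.36, 7.84, 7.26 and 6.90 after phenobarbital, against 7.96, 7.77, 7.87, 8.13 and 7.79 in controls. Replicate 3 of the treated arrays, at 7.84, lay within the control range and the other 4 lay below it. The difference was -0.69 (SE 0.13, adjusted p = 0.000168) on this probe set, and -0.19 (SE 0.09, adjusted p = 0.101) on the second, so this call rests on 1 of 2 probe sets. Reln had 9.86, 9.91, 10.28, 9.89 and 9.997 after phenobarbital, against 10.27, 10.43, 10.47, 10.41 and 10.50 in controls. Only the treated array at 10.28 touched the control range, and the difference was -0.43 (SE 0.09, adjusted p = 0.000456).

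The 3′ minus 5′ difference of the actin and Gapdh control probe sets, a sign of RNA integrity, also separated the arms at day 28, with 0.422 to 0.503 after phenobarbital and 0.516 to 0.806 in controls. With it as a covariate limma called the same 4 members at day 28: Lrat had -0.88 (adjusted p = 0.0490), Dcn -0.60 (adjusted p = 0.0026), Pdgfrb -0.57 (adjusted p = 0.0176) and Reln -0.39 (adjusted p = 0.0191).

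After 91 days Reln had 10.08, 9.95, 10.24, 10.11 and 9.91 with phenobarbital, against 10.36, 10.45, 10.33, 10.34 and 10.34 in controls. The groups did not overlap, as for 8.75% of tested genes in this direction, and the difference was -0.30 (SE 0.09, adjusted p = 0.0128). With the mean of all probe sets it was -0.11 (adjusted p = 0.126) and not called, where the other probe set of Reln lay above the array's lower quartile on 0 arrays. Lrat had 7.20, 7.70, 8.004, 8.10 and 8.52 with phenobarbital, against 8.28, 8.90, 8.36, 9.02 and 8.22 in controls. Replicate 5 of the treated arrays reached into the control range and the other 4 lay below it. The difference was -0.65 (SE 0.23, adjusted p = 0.0407), and it lost its call in 11 of 23 alternative settings, with values of -0.84 to -0.42 over all of them.

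**Figure D2:**
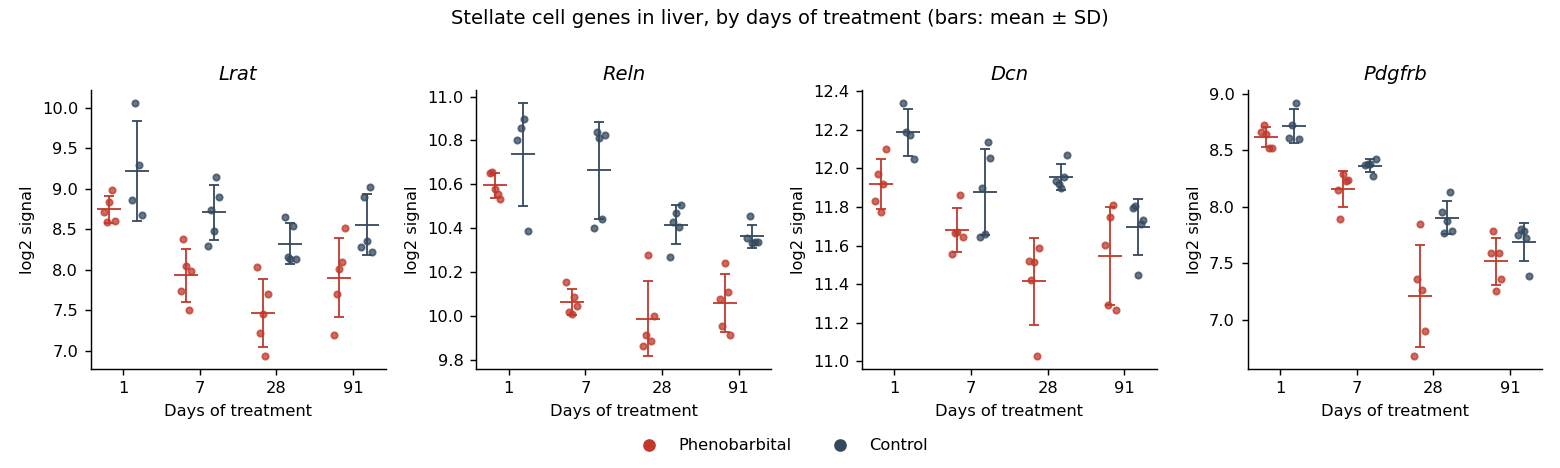
Log2 signal of Lrat, Reln, Dcn and Pdgfrb (vertical axes) against days of treatment (horizontal axis), with 1 point per array and the mean ± SD of each group, phenobarbital left of control at each day. Reln averaged 10.06 after phenobarbital and 10.66 in controls at day 7, and Lrat averaged 7.47 after phenobarbital and 8.32 in controls at day 28.

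Averaged over the 4 durations, 4 of 9 members were called lower after phenobarbital and 0 higher, where 29.9% of tested genes were called lower and 14.7% higher. Lrat had a mean difference of -0.69 (SE 0.12, adjusted p = 1.32e-05), the 48th lowest of all tested genes. Reln had -0.37 (SE 0.04, adjusted p = 3.48e-08), Dcn -0.29 (SE 0.05, adjusted p = 3.68e-05) and Pdgfrb -0.29 (SE 0.07, adjusted p = 0.000472). The value of Pdgfrb is that of its main probe set. Its second averaged higher after phenobarbital at day 1, at 7.11 against 6.91 in controls. It averaged lower at day 7 (6.93 against 7.07), day 28 (6.56 against 6.75) and day 91 (6.54 against 6.72). Counts over the members under other scalings were 4 lower and 1 higher with quantile normalization, where 19.5% of tested genes were called lower, and 4 lower and 0 higher with centring on the median, where 18.6% were. The median over the members was -0.12, against -0.04 over all tested genes.

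For the collagens and Acta2 the 95% intervals of the mean difference held 0. They ran from -0.02 to 0.29 for Col1a1, -0.25 to 0.01 for Col1a2, -0.22 to 0.03 for Col3a1, -0.09 to 0.10 for Col4a1 and -0.06 to 0.29 for Acta2. At single durations the widest departures were Col3a1 at day 91 (-0.32, interval -0.57 to -0.07, adjusted p = 0.064) and Col1a1 at day 7 (0.29, interval -0.01 to 0.60, adjusted p = 0.184). The mean of Col1a2 joins opposite signs: 0.17 at day 7, -0.27 at day 28 (interval -0.53 to -0.02) and -0.28 at day 91 (interval -0.54 to -0.02). A missed threshold does not show that the arms were alike, and the second probe set of Col1a1 had a called mean difference of 0.19 (SE 0.07, adjusted p = 0.0289), in the higher direction. Timp1, tested with no filter on low signals, had a mean difference of 0.01 (SE 0.05).

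**Figure D3:**
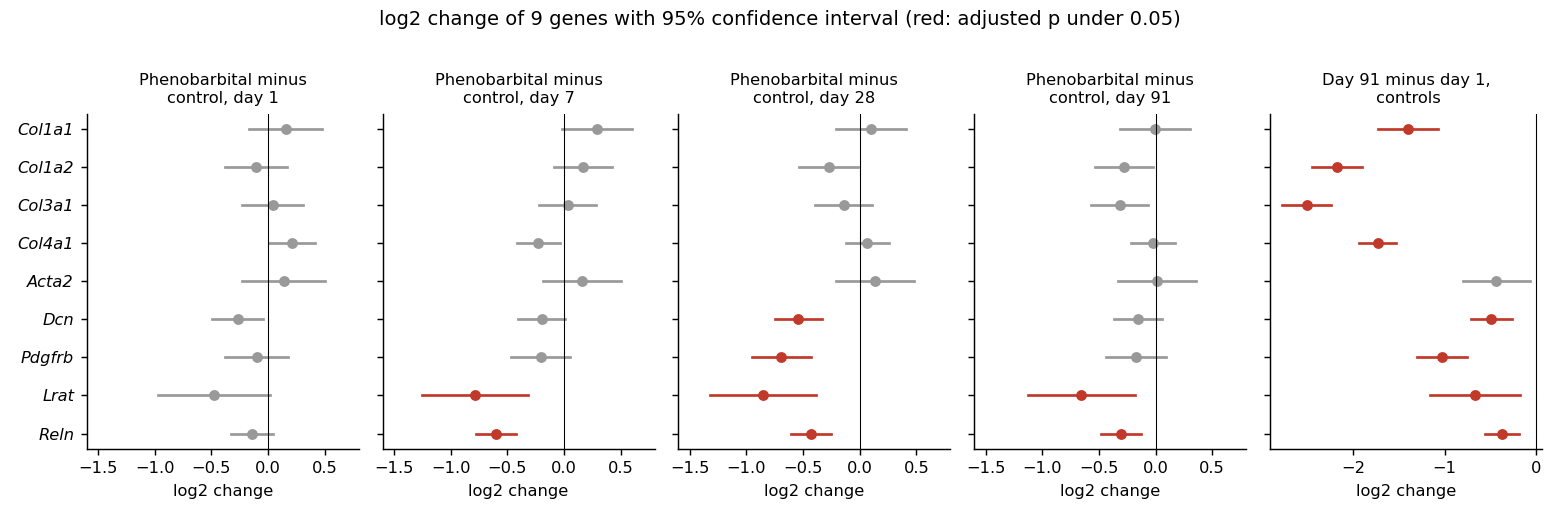
Log2 change with its 95% interval (horizontal axis) for the 9 tested members (rows), for phenobarbital minus control at days 1, 7, 28 and 91 and for day 91 minus day 1 in controls, with calls at an adjusted p under 0.05 in red. The collagens are called only in the panel of controls over time, from -2.51 for Col3a1 to -1.40 for Col1a1, while Lrat and Reln are also called at days 7, 28 and 91.

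Single probe sets added detail that the chosen ones do not show. At day 1 the second Lrat probe set had 4.60, 4.53, 4.84, 4.77 and 5.17 after phenobarbital, against 6.82, 7.94, 6.74 and 5.97 in controls. The treated arrays lay below the lowest array median of 5.69, and all arrays given phenobarbital lay below their array's median at each later day too. No fold or test is given for this probe set, which passed the filter only through controls, and the main probe set had -0.47 (SE 0.24, adjusted p = 0.135) at day 1.

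Lower calls are not counted over the 16 tested probe sets, as the second of Lrat was tested only through arrays where it is high. Of the 21421 probe sets tested, 21.1%, 10%, 20.7% and 14.4% were called lower at days 1, 7, 28 and 91. At day 1 the members had 1 probe set called higher, where 14% of the probe sets tested were. The probe set called higher at day 1 was the second of Col4a1 (0.30, SE 0.11, adjusted p = 0.0353), which was then called lower at day 7 (-0.51, SE 0.11, adjusted p = 0.00123). The second probe set of Dcn was called lower at days 1, 7 and 91 (-0.40, -0.40 and -0.32) and not at day 28 (-0.20). Its signals were low, above the array's median on 21 of 39 arrays. After 7 days of phenobarbital they were 5.44 to 5.64, below the lowest array median of 5.69. Over time in controls 17.5% of all tested probe sets were called lower.

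The effect of phenobarbital changed between day 1 and day 7 for 2 of 9 members, both downwards, where 13.1% of tested genes changed that way. Besides Reln, this was Col4a1, whose difference moved by -0.43 (SE 0.14, adjusted p = 0.0222), and by -0.81 (SE 0.16, adjusted p = 0.000509) on its second probe set. Col4a1 had 9.80, 9.72, 9.97, 9.90 and 9.97 after phenobarbital at day 7, against 9.97, 9.90, 10.18, 10.12 and 10.31 in controls, so the arms touched. Both changes rest in part on day 1 control replicate 4, which was low for both genes. Without that array the day 1 differences were 0.075 for Col4a1 and -0.26 for Reln, in place of 0.21 and -0.14. Between day 1 and day 28 limma called 0 of 9, where 3.25% of tested genes were called, with an unadjusted p under 0.05 for Pdgfrb (-0.59) and Reln (-0.29). Between day 1 and day 91 it called 0 of 9, where 30.4% were called, and 0 members had an unadjusted p under 0.05.

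The third comparison set the collagens against the quiescence markers within each array. For each array the mean of Lrat and Reln and the mean of Col1a1, Col1a2 and Col3a1 were taken relative to the day 1 controls, as a description with no test. The collagen mean had medians of -0.11, -0.19, -1.66 and -2.24 after phenobarbital at days 1, 7, 28 and 91, and of 0.00, -0.36, -1.59 and -2.02 in controls. The quiescence mean had medians of -0.30, -0.96, -1.13 and -0.88 after phenobarbital, and of -0.02, -0.19, -0.66 and -0.63 in controls. Col4a1 is not part of this collagen mean.

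The difference of these means, quiescence minus collagens, had a median of -0.75 after phenobarbital at day 7 (range -1.35 to -0.59), against -0.02 in controls (range -0.28 to 0.37). At day 28 it was 0.48 after phenobarbital (0.21 to 0.71), against 0.92 in controls (0.75 to 1.32). At days 7 and 28 the arms did not overlap. At day 1 the median was -0.30 after phenobarbital (-0.83 to -0.07) and 0.05 in controls (-0.44 to 0.35), and at day 91 it was 1.16 after phenobarbital (0.90 to 1.78) and 1.45 in controls (1.24 to 1.80), both with overlap.

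**Figure D4:**
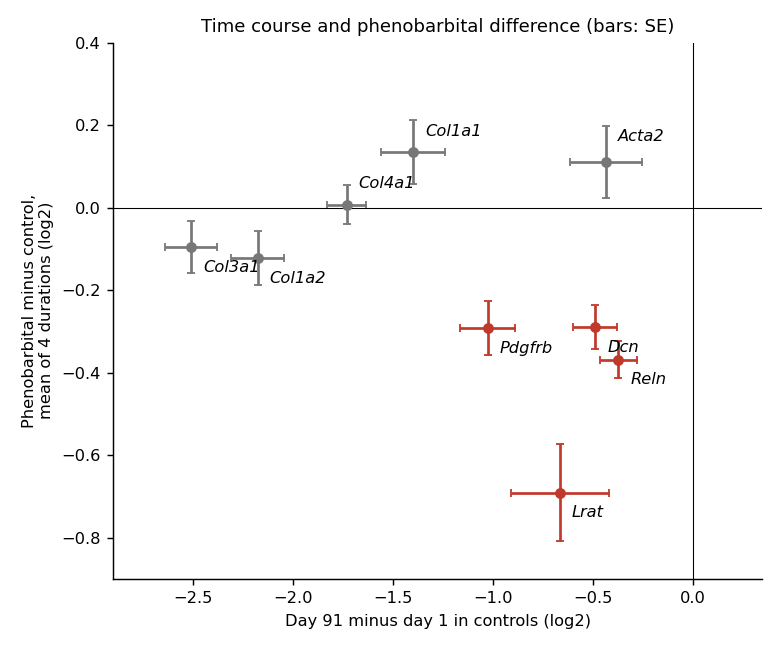
For each of the 9 tested members, the mean log2 difference of phenobarbital minus control over the 4 durations (vertical axis) against the log2 change from day 1 to day 91 in controls (horizontal axis), with bars of 1 SE and members called in the mean difference in red. The collagens lie far to the left and near 0 on the vertical axis (Col3a1 at -2.51 and -0.10), and Lrat lies lowest at -0.69 with a control change of -0.66.

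Across the 39 arrays the pattern of each member was compared with that of every other tested gene by Pearson's r, as a description over arrays that share groups and durations. Col1a2 and Col3a1 were the most alike of all members (r = 0.993). The genes closest to the collagens were mostly other matrix genes: Col5a2 and Col6a3, chains of types V and VI, and Sparc, a collagen-binding protein, with r of 0.982 to Col5a2 and 0.983 to Sparc for Col3a1. Col4a1 was also close to Col4a2 (r = 0.978), its partner chain. Lrat was closest to Wnt2 (r = 0.904), a Wnt ligand, then to Hs2st1 (r = 0.828) and to the stellate cell transcription factor Lhx2 (r = 0.817). Reln was closest to Dpysl2 (r = 0.870) and to Hand2 (r = 0.862), another transcription factor of stellate cells. Pdgfrb was closest to Gucy1a1 (r = 0.957), a subunit of soluble guanylate cyclase, Acta2 to the smooth muscle genes Tagln (r = 0.847) and Myl9 (r = 0.792), and Dcn to Plxnc1 (r = 0.842). Lrat and Reln had r = 0.738 with each other, and 0.432 and 0.551 with Col3a1.

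Of the 15 other stellate cell markers tested, 10 were called lower and 1 higher in the mean over durations, where 29.9% of tested genes were called lower and 14.7% higher, with a median of -0.23 against -0.04 over all tested genes. The counts of lower calls were 6, 5, 7 and 6 at days 1, 7, 28 and 91, where 16.7%, 11.4%, 18.1% and 16.1% of tested genes were called lower, with 3 and 1 higher at days 1 and 7. Hand2 was called lower at all 4 days, by -0.50, -0.81, -0.94 and -0.59, with a mean of -0.71 (SE 0.08, adjusted p = 7.87e-09). Bambi, a pseudoreceptor that dampens TGF-beta signalling and is high in quiescent stellate cells, was likewise called lower at all 4 days, by -0.37, -0.61, -0.70 and -0.56, with a mean of -0.56 (SE 0.05, adjusted p = 9.55e-11). A lower call at all 4 days was made for 0.723% of tested genes.

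Lhx2 had a mean of -0.38 (SE 0.07, adjusted p = 2.44e-05), Rspo3, a secreted enhancer of Wnt signalling, -0.46 (SE 0.07), the collectin gene Colec10 -0.31 (SE 0.05) and Hgf, the hepatocyte growth factor, -0.23 (SE 0.04), all called. Pparg, a nuclear receptor of the quiescent state, was the only one called higher in the mean (0.33, SE 0.09, adjusted p = 0.0022), through days 1 and 7. Some markers were called in both directions. Ngfr was higher at day 1 (0.31) and lower at days 7 and 91 (-0.58 and -0.59). Adamtsl2 was higher at day 1 (0.18) and lower at day 91 (-0.23). Colec10 was called lower at days 1 and 28 (-0.43 and -0.56), and not at days 7 and 91 (-0.20 and -0.03). The long-used marker genes Des, Gfap and Cygb, named here after their values were seen, had means of 0.05, 0.06 and 0.06 (SE 0.06, 0.04 and 0.05) and were not called. The mean over the 15 markers was 7.13 to 7.20 after phenobarbital and 7.26 to 7.50 in controls at day 7. It was 6.91 to 7.14 and 7.20 to 7.32 at day 28, and 6.98 to 7.08 and 7.21 to 7.30 at day 91. The arms did not overlap at any of these days. The 17 other collagens described below were also apart at day 91, at 7.36 to 7.43 after phenobarbital and 7.49 to 7.57 in controls. So were the 21 other matrix proteins, at 7.38 to 7.54 and 7.59 to 7.66. In both of these lists the arms overlapped at days 7 and 28. Among the 15 markers the lower calls at day 91 numbered 3 with quantile normalization and 4 with centring on the median, in place of 6. Without the 4 arrays that stood apart the mean effect kept 10 lower and 1 higher.

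**Figure D5:**
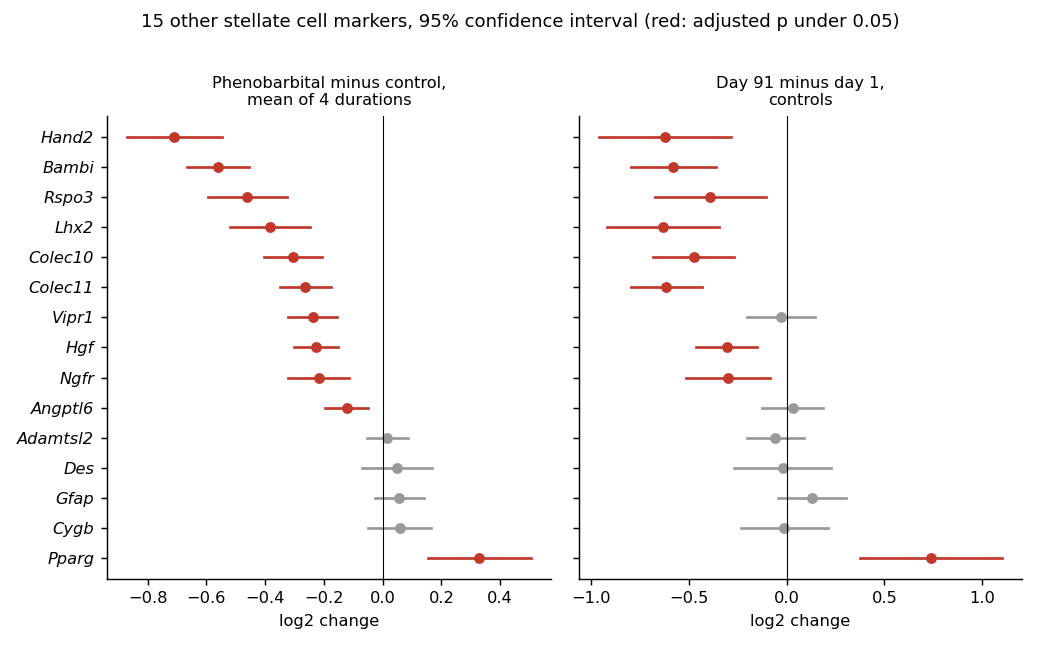
Log2 change with its 95% interval (horizontal axis) for the 15 other stellate cell markers (rows), for the mean phenobarbital minus control difference over the 4 durations and for day 91 minus day 1 in controls, with calls in red. Hand2 (-0.71) and Bambi (-0.56) lie lowest in the mean difference, and Pparg is higher in both panels (0.33 and 0.74).

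Other matrix genes were read first over time, in controls at day 91 against day 1, where 16.6% of all tested genes were called lower and 19.7% higher. Of 17 other collagen genes tested 9 were called lower and 2 higher, with Col5a2 at -1.89 (SE 0.12, adjusted p = 6.82e-14), Col4a5 at -2.24 (SE 0.17) and Col4a2 at -1.30 (SE 0.10). Col5a3, a minor fibrillar chain, went the other way at 1.84 (SE 0.17, adjusted p = 1.6e-10). Of 17 genes of collagen folding, processing and crosslinking 8 were lower and 2 higher, with Sparc at -2.19 (SE 0.11, adjusted p = 3.13e-17) and Pcolce, the enhancer of procollagen cleavage, at -1.15 (SE 0.13). In the interval from day 7 to day 28 alone, 15 of these 17 were called lower, where 26.5% of tested genes were, with a median of -0.45. Of 21 other matrix proteins 12 were lower and 0 higher, among them Nid1 (-1.74, SE 0.13), Postn (-1.55, SE 0.13) and Eln (-1.44, SE 0.14), which encode nidogen, periostin and elastin.

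In the mean effect of phenobarbital 29.9% of all tested genes were called lower and 14.7% higher. Of the 17 other collagens 6 were called lower and 3 higher, shares near those of all genes, with Col5a3 at -0.51 (SE 0.08, adjusted p = 4.2e-06) and Col12a1 at 0.31 (SE 0.04, adjusted p = 1.18e-07). Of the 17 collagen processing genes 3 were lower and 2 higher, with the procollagen protease gene Bmp1 at -0.29 (SE 0.04) and the prolyl hydroxylase P3h1 at 0.24 (SE 0.05). Of the 21 other matrix proteins 10 were lower and 1 higher, with Fbln5 at -0.31 (SE 0.05) and Tnc, the tenascin C gene, at 0.38 (SE 0.05). These 10 lower calls were 8 with quantile normalization and 7 with centring on the median.

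Of 9 matrix proteases and inhibitors 3 were lower and 0 higher in controls at day 91 against day 1, with the gelatinase gene Mmp2 at -0.98 (SE 0.13, adjusted p = 3.53e-07), and in the mean effect of phenobarbital 5 were lower and 1 higher, with Mmp2 at -0.21 (SE 0.06) and Mmp19 at 0.37 (SE 0.06). Of 14 myofibroblast and smooth muscle genes 8 were lower and 3 higher over time, with the intermediate filament gene Vim at -1.27 (SE 0.15), and 3 were lower and 1 higher in the mean effect, with Islr at -0.41 (SE 0.06) and Pdgfra at -0.30 (SE 0.06). In TGF-beta and PDGF signalling 5 of 21 genes were lower and 1 higher in the mean effect, against the 29.9% and 14.7% of all tested genes. The higher one was Tgfbr2, the type II receptor of TGF-beta, with 0.42, 0.51, 0.49 and 0.57 at the 4 days and a mean of 0.50 (SE 0.05, adjusted p = 6.6e-10). In controls over time that list had 3 higher and 2 lower, with Ccn2, the connective tissue growth factor gene, at 1.00 (SE 0.35, adjusted p = 0.0244).

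Markers of other cells that could carry these genes were read beside the members, against the 16.6% lower and 19.7% higher of all tested genes over time in controls. All 11 Kupffer cell and macrophage markers were called lower in controls at day 91 against day 1, with a median of -0.73 and array means of 8.46 to 8.75 against 9.27 to 9.61. Of 14 endothelial markers 10 were lower and 0 higher, with a median of -0.40 and array means of 7.69 to 8.04 against 8.16 to 8.39. All 9 proliferation markers were lower, with a median of -2.18, and 4 of 6 male-biased liver genes were higher, with a median of 1.59. Their part in the decline of the collagens was not tested. Of 7 portal fibroblast and mesothelial markers 0 were called by limma in that comparison and 1 had an unadjusted p under 0.05.

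In the mean effect of phenobarbital 7 of 14 endothelial markers were called lower and 1 higher, where 29.9% and 14.7% of tested genes were, with a median of -0.14 against -0.04 over all tested genes. Their array means were 7.72 to 8.10 after phenobarbital and 7.86 to 8.26 in controls at day 28, with overlap. Of the 11 Kupffer cell markers limma called 0 in the mean effect and 2 had an unadjusted p under 0.05, but without the 4 arrays that stood apart 4 were called lower. The portal fibroblast list had 1 lower and 1 higher, and the part of these cells in the lower Lrat and Reln signal was not tested.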

How the data were processed

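Liver RNA of 39 mouse arrays was analysed from the values the authors deposited, which are on a log2 scale. How arrays were normalized and probes summarized is not given in the sources used here, and the submitters' processing notes name GCOS with no version. Per the labels' protocols, the treatment text mentions 28 days and the extraction text also names kidney, while the labels of each sample give up to 91 days and whole liver, which were used. Samples were grouped by treatment and duration. No value was rescaled, and as arrays carry no counts, precision is set by how many there are per group.

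Of 18193 genes, each read from 1 probe set (34945 probe sets have a single symbol), 12580 passed the filter given above. limma 3.58.1 (R 4.3.3) fitted 1 mean per group with eBayes and a trend in the prior variance, leaving 31 residual and adding 4.46 prior degrees of freedom. P-values are 2-sided, adjusted by Benjamini-Hochberg within each comparison, and called under 0.05. All probe sets were fitted in the same way. The procedure was tested on simulated data. The members and the 20 gene lists (256 genes, 234 with a probe set, 188 tested) were chosen with earlier results of these data known. All members are named. Per list, the called genes with the smallest adjusted p were eligible, up to 3 in controls over time and up to 2 in each other comparison. Not every eligible gene is named. Where a list had no call, the gene with the smallest p in controls was eligible. Like genes were the 5 with the highest r. Alternatives were quantile normalization, centring on the median, a looser or stricter filter (none, or the 75th percentile), probe sets averaged per gene, dropping multi-transcript probe sets, a prior that was robust or had no trend, array weights, a fit to the compared arrays alone, spike-in or 3′ minus 5′ covariates, and leaving out each array. Leaving out 4 arrays that stood apart, and the rescaled lists, were added after seeing the data.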

Additional observations from a re-analysis of the deposited data

Results flagged for a closer look

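Among 72 sets of replicate values, 1 per member and group, 5 held an array far from the others of its group by Dixon's criterion, which chance alone meets in about 1 set of 20. In the phenobarbital group at day 1, Col3a1 had 12.35 in replicate 2, against 12.01 to 12.08 in the others. Without that array its difference from controls at day 1 was -0.019 in place of 0.040, uncalled either way. In day 1 controls Col4a1 had 9.77 in replicate 4, against 10.25 to 10.34 in the others. In day 91 controls Dcn had 11.45 in replicate 3, against 11.71 to 11.80, Pdgfrb had 7.39 in replicate 5, against 7.72 to 7.80, and Reln had 10.45 in replicate 2, against 10.33 to 10.36.

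The phenobarbital effect differed between day 7 and day 1 for Col4a1, by -0.43, and for Reln, by -0.46, as tested in limma by the difference of the effects (adjusted p = 0.0222 and 0.00945). For Col4a1 the effect was -0.22 at day 7 and 0.21 at day 1, neither of them called on its own. Without day 1 control replicate 4 the day 1 effect of Col4a1 was 0.075, and that of Reln was -0.26 in place of -0.14.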

How the results depend on the processing

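The counts at day 28 (4, range 3 to 4), in controls over time (8, 7 to 9), in phenobarbital livers over time (9, 7 to 9) and for the mean effect (4, 3 to 5) stayed within 1.5 times. The day 1 count of 0 became 3 with the mean of all probe sets, 2 with array weights, 1 with only the arrays compared and 1 without the 4 arrays that stood apart, and ran from 0 to 2 when arrays were left out singly (2 without control replicate 4, for Dcn and Reln, and 1 without phenobarbital replicate 5). The day 7 count of 2 became 4 with the mean of all probe sets and 1 with the spike-in covariate, and ran from 1 to 2 with arrays left out singly (1 without replicate 4 of either arm). The day 91 count of 2, for Lrat and Reln, became 1 with quantile normalization, centring on the median, the mean of all probe sets (where it was Dcn at -0.24), only the arrays compared, and either covariate, and ran from 1 to 3 with arrays left out singly (1 without phenobarbital replicate 1, 2 or 3 or control replicate 2 or 4, and 3 without phenobarbital replicate 4, where Col3a1 was called at -0.38). The count of 0 for the effect at day 91 minus day 1 became 1 with the mean of all probe sets and without multi-transcript probe sets. The mean of all probe sets takes in the second Lrat probe set, so counts with it are not given as support.

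Signs turned only for members that were not called. At day 1 Col1a2 was 0.13 and Pdgfrb 0.20 without multi-transcript probe sets, Pdgfrb 0.052 with the mean of all probe sets, and Col3a1 -0.070 with that mean, -0.18 without those probe sets and -0.018 without the 4 arrays. At day 7 Col3a1 was -0.10 with the spike-in covariate. At day 91 Acta2 was -0.022 with that covariate, Col3a1 0.21 without multi-transcript probe sets, Col4a1 0.010 with quantile normalization and 0.025 with centring, and Col1a1 0.039 with either, 0.078 with the mean of all probe sets and 0.0028 with the 3′ minus 5′ covariate. With arrays left out singly the day 1 range was -0.027 to 0.26 for Col1a1 and -0.044 to 0.15 for Col3a1, the day 7 range was -0.028 to 0.11 for Col3a1, and the day 91 ranges were -0.13 to 0.092 for Acta2, -0.057 to 0.048 for Col1a1 and -0.075 to 0.037 for Col4a1. The cause of these changes was not tested, beyond the other probe set or fewer arrays that each alternative uses. No paired analysis was possible because the labels give the samples no replicate numbers, and those printed here only name arrays in their listed order.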

Other observations

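Lists not described above, in controls at day 91 against day 1, held 1 gene called higher and 4 lower of 6 hepatocyte markers (median -0.10), 1 higher and 2 lower of 3 postnatally silenced liver genes (median -1.39), 1 higher and 1 lower of 2 erythroid markers, and 1 lower of 2 adipocyte markers. In the same comparison limma called 0 of 3 cholangiocyte, 0 of 2 neutrophil, 0 of 4 lymphocyte and 0 of 5 exocrine pancreas markers, and 2, 1, 0 and 0 of these had an unadjusted p under 0.05. In the mean effect of phenobarbital 1 cholangiocyte marker was called higher, 1 hepatocyte and 1 erythroid marker were called lower, and limma called 0 in the other 5 of these lists, where 1 exocrine pancreas marker had an unadjusted p under 0.05.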
